A study of Homo sapiens with 8 samples.

Results

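The caspase family was followed here as 8 genes, CASP1, CASP2, CASP4, CASP5, CASP6, CASP8, CASP9 and CASP10, chosen by name and matched by Ensembl identifier among the 34618 genes of the deposited tables. Caspase genes outside these 8 were not analysed here. Stranded, poly(A)-selected RNA sequencing was available for 8 libraries. The cells are labelled THP1, a monocytic leukaemia line. In the 4 MOCK libraries the cells carried an empty vector. In the 4 called RRM2_OE they had been transduced with the mutant iRxI/AxA. All cells, controls included, were grown with doxycycline at 2 µg/mL. RRM2 belongs to ribonucleotide reductase, which supplies dNTPs, and the series asks how its hyperactivity bears on the differentiation of leukaemia cells. The labels do not say whether replicates were separate cultures or whether the cells were a pool or a clone, so p-values measure the spread between these libraries, which may be technical.

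Caspases are cysteine proteases that cut after aspartate and are made as inactive precursors. Initiator caspases are switched on by clustering on adaptor complexes: CASP8 and CASP10 at death receptors, CASP9 on the apoptosome that cytochrome c assembles, and CASP2 on the PIDDosome. Executioner caspases such as CASP6, which cuts nuclear lamins, are activated by cleavage, and the inflammatory caspases CASP1, CASP4 and CASP5 act in or beside inflammasomes, where they release interleukin 1 family cytokines or open gasdermin pores. Their activity is therefore set largely by protein cleavage, which transcript counts do not measure.

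Library totals lay between 10994255 and 11686152 counts. RRM2 stood at 116 to 128 CPM (counts scaled to a common library size) in the MOCK libraries and at 215 to 236 CPM in the RRM2_OE libraries, in the direction the labels give. Of 10 monocytic markers, 9 averaged at least 1 CPM in MOCK, and CD68 was below it. All 8 erythroid and megakaryocyte markers also reached 1 CPM in MOCK, with ITGA2B at 333 CPM, and CDKN2A, commonly reported as deleted in THP1, was read at 44.6 to 56.3 CPM in MOCK. The libraries also split by replicate number: within a group, odd-odd and even-even pairs differed by a chi-square of 1.47 to 2.90 per degree of freedom, and odd-even pairs by 6.18 to 12.0. Libraries of like parity may thus be closer than separate cultures would be. Values by replicate are given for the caspase genes, FAS and PIDD1. Other genes named below carry the split too, without such values, for example TNFRSF10B (-0.36 on the log2 scale, odd minus even) and MPO (0.29).

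Of the 8 caspase genes, 7 were read well enough to be tested. CASP1 and CASP8 were higher and CASP6 lower in RRM2_OE, while CASP2, CASP4, CASP9 and CASP10 did not pass the test. The threshold was 0.05 on Benjamini-Hochberg adjusted p over 15286 genes, from the quasi-likelihood test of edgeR. Over all genes tested, 12.8% were called, 7.41% as higher and 5.42% as lower. With 7 genes, 2 rises and 1 fall are too few to set the family apart from that background, and none of the 3 changes reached 1.5-fold. Over the 7 genes the log2 fold change had a median of 0.02, against -0.0028 for all genes tested. The 3 called genes were also those whose libraries did not overlap between groups, a separation seen upward in 10.5% and downward in 8.89% of all genes tested. In RNA from whole cultures fewer cells of a type and less RNA per cell cannot be told apart. With replicate number as a block the same 3 genes passed, while the share of all genes called rose to 15.1% higher and 14.0% lower.

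**Figure D1:**
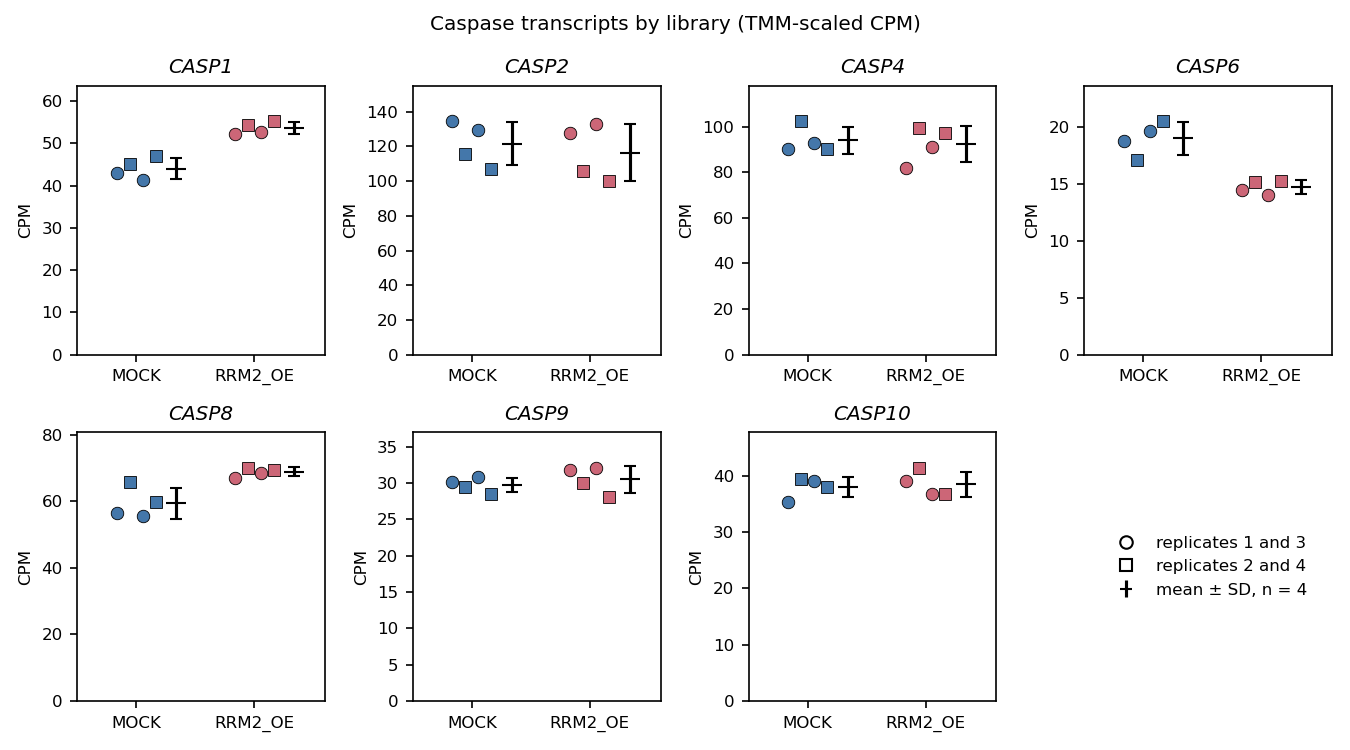
Level of each tested caspase gene in CPM (vertical axes from 0) in the 4 MOCK and 4 RRM2_OE libraries, with circles for replicates 1 and 3, squares for replicates 2 and 4, and mean ± SD (n = 4) at the right of each group. The groups do not overlap for CASP1, CASP6 and CASP8, and CASP2 separates circles from squares instead, with all circles at 128 CPM or above and all squares at 115 CPM or below.

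Per exon length, the caspases fell into an upper, a middle and a lower set. By the authors' RPKM (reads scaled to exon length and library size), averaged over the 8 libraries, CASP2 was highest at 14.8, followed by CASP1 at 13.1 and CASP4 at 12.8, and the ranges of neighbours in this order overlapped. CASP8 at 9.41 and CASP6 at 8.71 overlapped each other and lay below CASP4 in every library. CASP9 at 5.71 and CASP10 at 5.03 overlapped each other and lay below CASP6 in every library. CASP5 was last at 0.0340 RPKM. These levels put CASP2 above 76.4% of the genes tested and CASP10 above 43.6% of them. The order of the CASP6 and CASP8 means differed between the groups: in MOCK the mean was 9.78 ± 0.862 RPKM for CASP6 and 8.68 ± 0.713 RPKM for CASP8, and in RRM2_OE it was 7.63 ± 0.402 and 10.1 ± 0.325 RPKM (mean ± SD, n = 4). MOCK replicate 2 was the exception, with CASP6 at 8.79 and CASP8 at 9.59 RPKM. RPKM used the total exon length of each gene, 1936 bp for CASP6 and 6808 bp for CASP8, so the order between genes depends on that length. The transcripts these cells use were not measured.

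**Figure D2:**
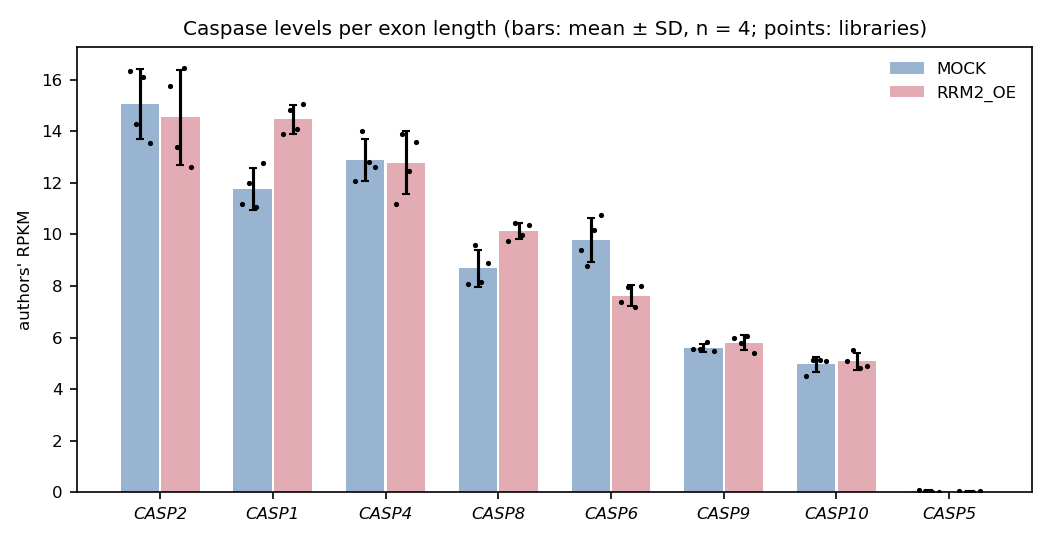
The authors' RPKM (vertical axis, from 0) of the 8 caspase genes in order of their mean over all libraries, as bars of mean ± SD (n = 4) for MOCK and RRM2_OE with 1 point per library. CASP2, CASP1 and CASP4 share the top of the scale, the mean of CASP6 stands above that of CASP8 in MOCK and below it in RRM2_OE, and CASP5 is near 0.

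CASP8 is the initiator caspase of the death receptor pathway. It lies on chromosome 2 at 202098166 to 202152434 of hg19, on the plus strand. MOCK replicates 1 to 4 gave 56.6, 65.9, 55.5 and 59.8 CPM, and RRM2_OE replicates 1 to 4 gave 67.1, 70.1, 68.5 and 69.5 CPM. All RRM2_OE libraries lay above all MOCK libraries, by a narrow margin over MOCK replicate 2. From 59.5 ± 4.66 to 68.8 ± 1.33 CPM (mean ± SD, n = 4) the rise was 1.16-fold, a log2 fold change of 0.21 (SE 0.06, 95% interval 0.08 to 0.34, adjusted p = 0.0335). This call was the least secure of the 3. It was lost on leaving out MOCK replicate 1, 3 or 4 or any single RRM2_OE replicate, with adjusted p between 0.0559 and 0.0978, and kept without MOCK replicate 2 (adjusted p = 0.0114, edgeR). It was also lost on log2(RPKM + 1) with limma (adjusted p = 0.0623). Replicates 1 and 3 alone gave a log2 fold change of 0.27, and replicates 2 and 4 alone gave 0.15, the latter without a call (adjusted p = 0.0854, edgeR). With the replicate block the adjusted p was 4.19e-04.

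CASP10, the other death receptor initiator, lies just upstream of CASP8 on the same strand, at 202047604 to 202094129. Its counts gave 35.4, 39.5, 39.1 and 38.0 CPM in MOCK and 39.0, 41.5, 36.8 and 36.7 CPM in RRM2_OE. The groups overlapped, and the log2 fold change of 0.02 (95% interval -0.12 to 0.16) did not pass (adjusted p = 0.892, edgeR). CASP8 and CASP10 were compared within libraries, where scaling cancels: the ratio of CASP8 to CASP10 counts went from 1.57 ± 0.105 to 1.79 ± 0.1002 (mean ± SD, n = 4). This ratio was chosen after the values of both genes were seen and is given as a description. CFLAR, the neighbouring gene for the caspase-like inhibitor FLIP that competes with CASP8 for its adaptor, gave 293 ± 13.4 and 293 ± 8.57 CPM (log2 fold change 0.00, adjusted p = 0.982, edgeR).

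RefSeq promoter windows were matched for 6 of the 8 caspase genes, at 10 start sites in all (GRCh38.p14), with none for CASP1 or CASP10. They are shown for CASP8 and CASP6, the 2 matched genes that passed the test and that moved in opposite directions. Each runs from 250 bases before the start to the 10th transcribed base, at chr2:201233213-201233472 on the plus strand for CASP8 and chr4:109703436-109703695 on the minus strand for CASP6. Capitals mark the letters of a core interferon-stimulated response element (GAAA, any 2 bases, GAAA) or of a STAT site, TTCNNNGAA, each searched on both strands.
CASP8: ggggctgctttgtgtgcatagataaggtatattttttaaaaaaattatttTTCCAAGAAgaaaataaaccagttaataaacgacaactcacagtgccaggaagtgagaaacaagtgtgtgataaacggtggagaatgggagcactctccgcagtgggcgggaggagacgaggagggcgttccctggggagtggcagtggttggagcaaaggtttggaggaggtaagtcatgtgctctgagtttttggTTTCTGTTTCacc
CASP6: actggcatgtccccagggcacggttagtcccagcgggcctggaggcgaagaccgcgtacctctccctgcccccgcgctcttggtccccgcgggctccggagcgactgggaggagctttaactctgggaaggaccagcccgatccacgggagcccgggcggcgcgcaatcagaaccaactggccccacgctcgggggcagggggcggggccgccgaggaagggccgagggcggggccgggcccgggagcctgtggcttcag
The first CASP8 start held a STAT site at -200 to -192 and an interferon element, read on the minus strand, at -3 to 7 (counted from the first transcribed base as 1). Among all 35116 windows of 300 bases, 7.66% held the STAT letters and 3.57% the interferon letters. No letters of either kind were in the CASP6 window. The CASP5 window held both kinds, although that gene was hardly read. Neither E2F letters (TTTCCCGC or TTTGGCGC, in 2.27% of windows) nor a p53 response element (in 0.0285% of windows) was found in these 10 windows. With shares this low, absence from 10 windows says little. The full window of CASP6 was 72.0% G and C with 28 CpG dinucleotides, that of the first CASP8 start 46.3% with 6, and the medians over all windows were 58.7% and 14. A match of letters is a description of the sequence, not a site shown to be used, and which CASP8 start these cells use was not measured.

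CASP9, the apoptosome initiator, lies on chromosome 1 at 15817327 to 15853029, on the minus strand. MOCK libraries gave 30.1, 29.5, 30.8 and 28.5 CPM and RRM2_OE libraries 31.8, 30.1, 32.2 and 28.2 CPM. The groups overlapped, and the log2 fold change was 0.04 (95% interval -0.10 to 0.18, adjusted p = 0.763, edgeR). In both groups replicates 1 and 3 lay above replicates 2 and 4. Its 3' end overlaps the end of CELA2B, on the opposite strand, which was read at 10.8 CPM in MOCK.

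CASP2, the PIDDosome caspase, lies on chromosome 7 at 142985308 to 143004789, on the plus strand. MOCK replicates 1 to 4 gave 135, 115, 129 and 107 CPM, and RRM2_OE replicates 1 to 4 gave 128, 106, 133 and 99.9 CPM. The groups overlapped throughout, and the log2 fold change of -0.06 did not pass (SE 0.10, 95% interval -0.28 to 0.16, adjusted p = 0.757, edgeR). What separated its libraries was the replicate number. Odd-numbered libraries were higher than even-numbered ones by 0.29 on the log2 scale (SE 0.03) in a fit with both terms (adjusted p = 1.43e-09, edgeR). Such a split was common: 30.4% of all genes tested passed for odd against even replicates, and 19.3% had odd and even libraries that did not overlap. Among the caspases CASP2 and CASP4 (-0.13 on the log2 scale, groups of replicates overlapping) passed, and the split was itself first noticed in these data. Its partner PIDD1, the p53-inducible scaffold of the PIDDosome, showed both patterns. PIDD1 was at 31.6, 19.4, 31.5 and 22.7 CPM in MOCK and at 42.6, 31.5, 43.2 and 34.2 CPM in RRM2_OE, so that it was higher in RRM2_OE within the odd and within the even replicates. Its log2 fold change of 0.53 (SE 0.16) missed the threshold without the block (adjusted p = 0.0616) and passed with it (adjusted p = 3.42e-08, edgeR). CRADD, which links PIDD1 to CASP2, gave -0.12 (adjusted p = 0.520, edgeR).

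CASP6, the executioner among these genes, fell. It lies on chromosome 4 at 110609785 to 110624739, on the minus strand. MOCK replicates 1 to 4 gave 18.8, 17.2, 19.7 and 20.5 CPM, and RRM2_OE replicates 1 to 4 gave 14.4, 15.2, 14.0 and 15.3 CPM. Every RRM2_OE library lay below every MOCK library. The mean went from 19.0 ± 1.45 to 14.7 ± 0.591 CPM (SD, n = 4) and fell by 22.6%, a log2 fold change of -0.37 (SE 0.08, 95% interval -0.54 to -0.20, adjusted p = 0.00976, edgeR). This rested on 162 to 229 counts per library, the fewest of the 7 tested caspases. The call held on leaving out any single library (adjusted p up to 0.0328). Replicates 1 and 3 alone gave a log2 fold change of -0.44, and replicates 2 and 4 alone gave -0.31, the latter just missing the threshold (adjusted p = 0.0538, edgeR).

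A gene on each side of CASP6 was called, in opposite directions. The 3' end of MCUB, a subunit of the mitochondrial calcium uniporter on the opposite strand, overlaps that of CASP6, and MCUB rose from 7.01 ± 0.335 to 9.79 ± 0.454 CPM (mean ± SD, n = 4, adjusted p = 0.00577, edgeR). PLA2G12A, a secreted phospholipase gene on the other side and on the strand of CASP6, fell from 20.9 ± 1.497 to 17.2 ± 1.04 CPM (mean ± SD, n = 4, adjusted p = 0.0354, edgeR). Without the block these were the 2 calls among 22 tested genes, other than the caspases, within 100 kb of a caspase gene, beside 12.8% called over all genes. With the block TRAK2 near CASP8 (adjusted p = 0.00540), CELA2A near CASP9 (adjusted p = 0.0244) and ZYX near CASP2 (adjusted p = 0.0292, edgeR) passed as well, all higher. How the authors' counting treated strand is not stated, so reads in the overlap of CASP6 and MCUB cannot be assigned with certainty.

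CASP1, the inflammasome protease that matures interleukin 1 beta and interleukin 18, rose. It lies on chromosome 11 at 104896170 to 104972158, on the minus strand. MOCK replicates 1 to 4 gave 42.9, 45.1, 41.2 and 46.9 CPM, and RRM2_OE replicates 1 to 4 gave 52.2, 54.4, 52.8 and 55.3 CPM. The groups were well apart. From 44.0 ± 2.51 to 53.7 ± 1.41 CPM (mean ± SD, n = 4) the rise was 1.22-fold, a log2 fold change of 0.29 (SE 0.06, 95% interval 0.16 to 0.41, adjusted p = 0.00597, edgeR). The call held without any single library (adjusted p up to 0.0226), in replicates 1 and 3 (log2 fold change 0.32) and in replicates 2 and 4 (log2 fold change 0.25). The span of CASP1 holds CARD16, a gene on the same strand for a CARD-only protein that resembles the CASP1 prodomain and can bind it. CARD16 went from 11.2 ± 1.89 to 12.5 ± 1.00 CPM (mean ± SD, n = 4) with a log2 fold change of 0.16 that did not pass (adjusted p = 0.426, edgeR). How reads shared by CARD16 and the part of CASP1 that it resembles were assigned is not stated, and the CASP1 value carries that uncertainty.

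CASP4 and CASP5, which bind bacterial lipopolysaccharide directly, are neighbours of CASP1 on the same strand, at 104813593 to 104840163 and at 104864962 to 104893895. CASP4 gave 90.1, 103, 93.0 and 90.3 CPM in MOCK and 82.1, 99.3, 91.2 and 97.2 CPM in RRM2_OE. The groups overlapped, with a log2 fold change of -0.02 (95% interval -0.17 to 0.12, adjusted p = 0.870, edgeR). The ratio of CASP1 to CASP4 counts within libraries went from 0.470 ± 0.0371 to 0.583 ± 0.0380 (mean ± SD, n = 4), again a description chosen after the values were seen. CASP5 had 2, 1, 0 and 0 counts in MOCK and 1, 0, 0 and 1 in RRM2_OE, at or under 3 counts in every library, so no change was detectable at this depth. The 3 inflammatory caspases of this stretch thus showed a rise, no call and hardly any reads.

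**Figure D3:**
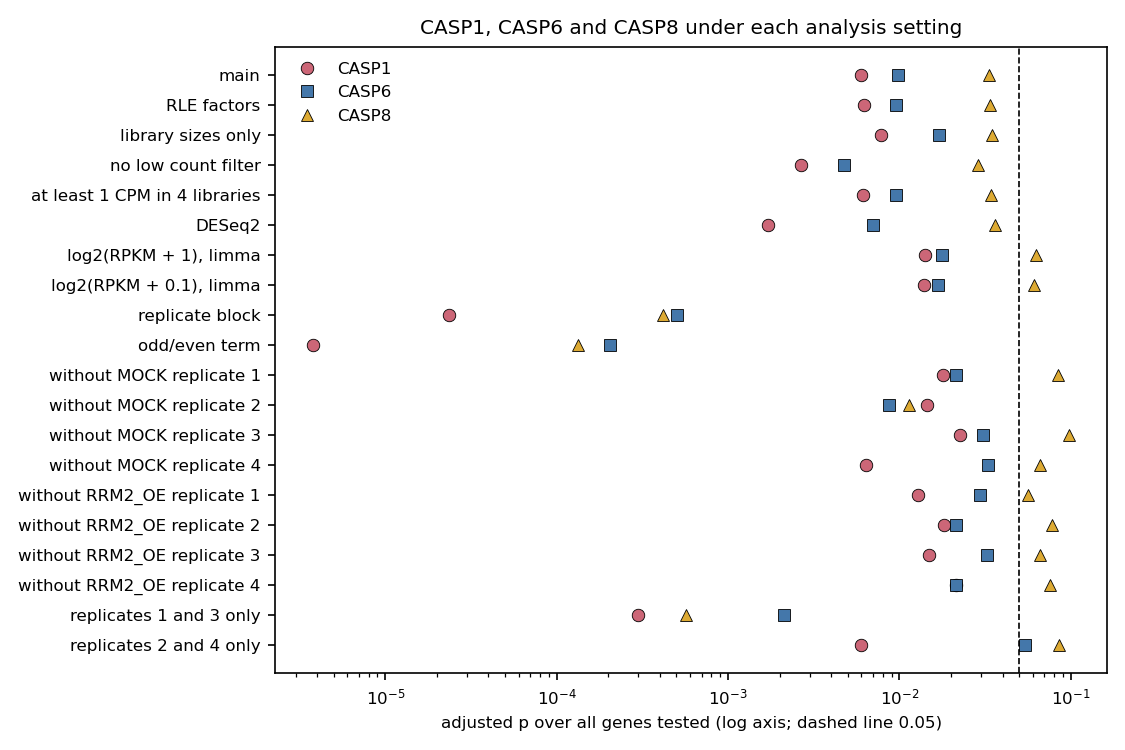
Adjusted p (horizontal log axis, dashed line at 0.05) of CASP1, CASP6 and CASP8 under each analysis setting (vertical axis). CASP1 stays left of the line throughout, CASP6 crosses it in replicates 2 and 4 alone at 0.0538, and CASP8 crosses it in 10 of the 20 settings plotted.

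The partners of these caspases were followed in 5 lists of 71 genes, of which 66 were tested, 13 rose and 2 fell. With the block 23 rose and 8 fell, while over all genes the called shares went from 7.41% higher and 5.42% lower to 15.1% and 14.0%. The lists, like the members, were drawn up with earlier results of these data known.

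Upstream of CASP8 and CASP10, of 16 death receptor pathway genes 6 rose and 1 fell, and the median change was 0.19 on the log2 scale. The death receptor FAS stood at 31.5, 28.7, 28.8 and 32.3 CPM in MOCK and at 46.5, 52.96, 48.2 and 49.6 CPM in RRM2_OE. All RRM2_OE libraries lay above MOCK, a log2 fold change of 0.70 (SE 0.07, adjusted p = 3.18e-05, edgeR). The ligand TRAIL (TNFSF10) rose by 0.70 on the log2 scale, from 52.0 ± 4.38 to 84.5 ± 8.29 CPM (mean ± SD, n = 4). Of its signalling receptors TNFRSF10B rose by 0.62, while TNFRSF10A, at 0.30, missed the threshold without the block (adjusted p = 0.0629) and passed with it (adjusted p = 0.00241, edgeR). Rises were also called for the decoy receptors TNFRSF10C (1.10), which has no death domain, and TNFRSF10D (0.61), whose death domain is truncated. TNF rose by 0.38, and its receptor TNFRSF1A fell by 0.20 on the log2 scale. In the blocked fit this list had 7 rises and 1 fall. The adaptors that carry the signal to CASP8 did not pass, with FADD at 0.08, RIPK1 at 0.09 and TRADD at -0.03 on the log2 scale. Ligands and receptors of both signalling and decoy kind were thus among the rises, whereas FADD and CFLAR, which sit directly beside CASP8, gave no call.

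Around CASP9, none of 9 apoptosome, mitochondrial and PIDDosome genes passed without the block (median log2 fold change 0.05), and 2 rose with it, PIDD1 and CYCS. APAF1, the scaffold of the apoptosome, gave 100.3 ± 6.71 and 98.0 ± 5.43 CPM (mean ± SD, n = 4). CYCS, or cytochrome c, was higher by 0.13 on the log2 scale (adjusted p = 0.232, and 0.00973 with the block, edgeR), and ENDOG, a mitochondrial nuclease, gave 0.05. Of 6 tested inhibitor of apoptosis genes 1 rose, BIRC3, from 215 ± 9.08 to 251 ± 16.3 CPM (mean ± SD, n = 4). The BIRC3 call was lost without MOCK replicate 3, RRM2_OE replicate 2 or RRM2_OE replicate 4 (adjusted p up to 0.0584, edgeR). XIAP, the direct inhibitor of CASP9, gave -0.04, BIRC2 gave 0.10 and BIRC5, or survivin, gave 0.16 on the log2 scale, none of which passed without the block. With it 2 inhibitor genes rose, BIRC3 and BIRC5 (adjusted p = 0.0164), and BIRC6 fell (-0.13 on the log2 scale, adjusted p = 0.00272, edgeR).

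Around CASP1, of 20 tested inflammasome genes 5 rose and 0 fell, with a median log2 fold change of 0.16. IL1B, the substrate of CASP1, rose by 0.65 on the log2 scale with RRM2_OE libraries at 167 to 173 CPM and MOCK libraries at 103 to 111 CPM. IL1A rose by 0.62, NINJ1, which ruptures the membrane of dying cells, by 0.49, the sensor NLRP1 by 0.41 and the guanylate-binding protein GBP1 by 0.46. The NLRP1 call was lost without MOCK replicate 1, RRM2_OE replicate 1 or RRM2_OE replicate 2 (adjusted p up to 0.0698), and the GBP1 call without any of 6 libraries (adjusted p up to 0.115, edgeR), namely MOCK replicates 1, 2 and 3 and RRM2_OE replicates 1, 2 and 4. The adaptor PYCARD (-0.02 on the log2 scale), the other cytokine IL18 (-0.03) and the pore protein GSDMD (-0.03) did not pass with or without the block. NEK7, the NLRP3 partner, at 0.14 and NLRP3 itself at 0.18 missed the threshold without the block (adjusted p = 0.0655 and 0.124) and passed with it (adjusted p = 0.00192 and 0.0157, edgeR). With the block 10 of the 20 rose and 0 fell.

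Among 15 caspase substrates and effectors, 1 rose and 1 fell (the log2 fold changes had a median of -0.11). LMNA, the lamin that CASP6 cuts, rose from 147 ± 9.39 to 173 ± 15.6 CPM (mean ± SD, n = 4, adjusted p = 0.0361), a call lost without MOCK replicate 1, 2 or 3 or RRM2_OE replicate 2 or 4 (adjusted p up to 0.1004, edgeR). DFFB, the nuclease that cuts DNA between nucleosomes once caspases release it, fell from 13.2 ± 1.32 to 9.78 ± 0.321 CPM (mean ± SD, n = 4, adjusted p = 0.00984, edgeR). LMNB1 (-0.06) and VIM (-0.02) gave no call. Under the block, 2 substrate genes rose while 6 fell.

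**Figure D4:**
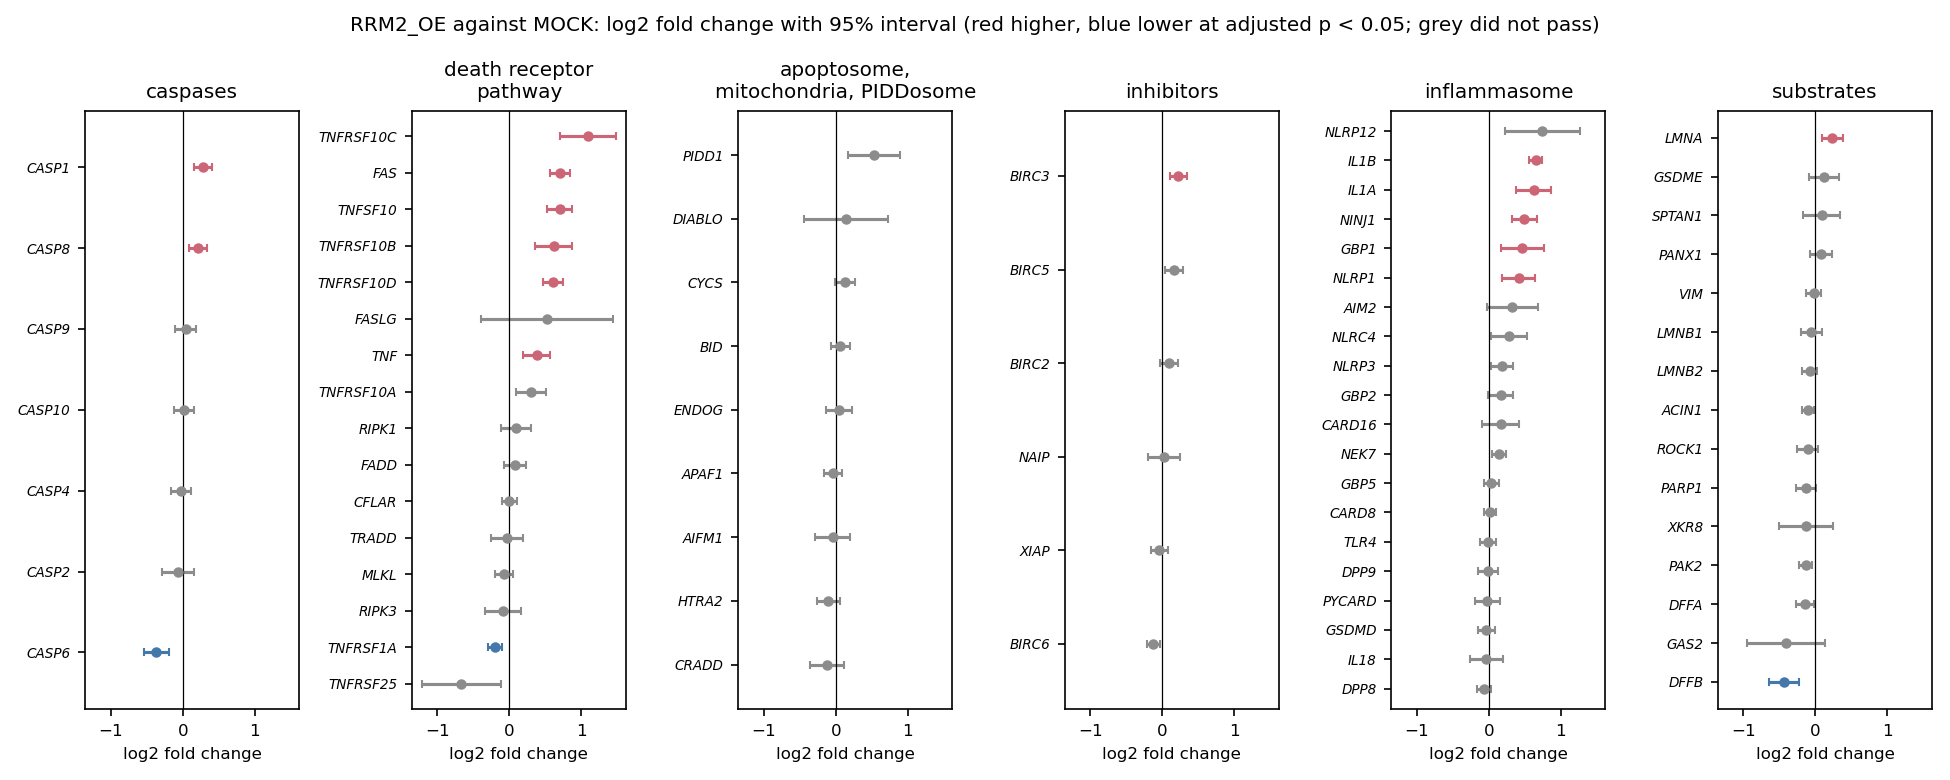
Log2 fold change of RRM2_OE against MOCK (horizontal axes) with 95% intervals for the 7 tested caspases and the 66 tested genes of the 5 lists, in red where higher, in blue where lower and in grey where the gene did not pass. Red points are 6 of 16 in the death receptor list and 5 of 20 in the inflammasome list, beside 7.41% of all genes tested. The lists were drawn up with earlier results of these data known. The caspase intervals lie within 0.55 of 0.

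Markers of other cell types moved with the groups as well, beside 7.41% of all genes tested called higher and 5.42% lower. All 5 tested T and NK markers rose, among 8 measured. CD8A, 1 of these 5, averaged 0.334 CPM in MOCK and 1.28 CPM in RRM2_OE. It passed the count filter only through its RRM2_OE libraries, so its rise is no independent support. The T and NK sum was 193 to 206 CPM in MOCK and 283 to 292 CPM in RRM2_OE. Its largest parts were IL7R (means of 85.3 and 131 CPM) and PRF1 (68.3 and 87.9 CPM). CD2, CD3E and CD3G were below 1 CPM in both groups. Of 9 tested monocytic markers, among 10 measured, 5 rose and 1, MPO, fell, with sums of 3514 to 3683 and 3398 to 3432 CPM. The largest parts of these sums moved in opposite directions: mean MPO went from 1225 to 466 CPM and mean LYZ from 1705 to 2197 CPM. Of the 8 erythroid and megakaryocyte markers 2 rose and 3 fell, with sums of 602 to 720 CPM in MOCK and 565 to 703 CPM in RRM2_OE. HBA1, which is part of these sums, was higher in odd than in even libraries, by 1.13 on the log2 scale. The fetal globin genes HBG1 (-0.57 on the log2 scale) and HBG2 (-0.64) fell together with ALAS2 (-0.66), the enzyme of erythroid haem synthesis, whereas the platelet genes PPBP (0.91) and ITGA2B (0.15) rose. Of 3 tested B and plasma markers, among 6 measured, CD79A rose, with sums of 7.08 to 10.4 and 10.5 to 12.7 CPM. None of 2 tested epithelial and fibroblast markers passed, among 6 measured, with sums of 28.0 to 34.4 and 30.7 to 34.6 CPM. No marker was at 0 in all 8 libraries. The part of these markers in the caspase results was not tested.

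Genes whose profile over the 8 libraries lay closest to a called caspase were found by the root mean square difference of mean-centred log2 CPM, among 10325 tested genes with a mean of at least 10 CPM. CASP1 was closest to FAM111A, a protease gene linked to restriction of viruses, at 0.02, and to TRIM22, an antiviral ubiquitin ligase, at 0.03, beside a spread of its own of 0.15. CASP6 was closest to RHAG, an erythroid membrane protein, and to DEPDC1, a mitotic gene, both at 0.04, beside its own 0.20. CASP8 was closest to MYL12A, a myosin light chain, and to PDE4D, a cAMP phosphodiesterase, both at 0.03, beside its own 0.13. Such likeness over 8 libraries in 2 groups compares change around each gene's own mean, not level, and is a description alone.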

How the data were processed

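RNA sequencing of 8 libraries was analysed, 4 per group, with groups and replicate numbers from the sample labels. The authors deposited whole-number read counts per Ensembl gene and RPKM values. Those RPKM were recomputed from the counts, column totals and exon lengths per the file headers to within 4.7e-06. Upstream tools, per the submitters' processing notes, include HTSeq 0.11.2, TopHat2 and bcl2fastq 2.18.0.12, with hg19 (GRCh37) as the build; their roles, the annotation and the strand setting are not stated there. Gene coordinates are those of the deposited tables, and promoter coordinates are RefSeq's on GRCh38.p14. Symbols came from a table of current names for 32562 genes and from GENCODE 29 for 299.

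Counts were tested over the whole table with edgeR 4.0.16 in R 4.3.3 (filterByExpr, TMM, robust quasi-likelihood F test, no covariate, 15286 genes), a script first tested on simulated data. Standard errors were derived from each fold change and its F statistic. Intervals are 95% t intervals from the fit. CPM use TMM-scaled library sizes. Alternatives were DESeq2 1.42.0, limma 3.58.1 on log2 RPKM, other scalings and filters, a replicate block, an odd/even term, a threshold of 0.01, and leaving out libraries.

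Same-numbered libraries of the 2 groups correlated at 0.225 to 0.251 (deviations of log2 CPM from group means), and libraries of like parity at 0.225 to 0.294. Same-numbered libraries were thus no closer than others of like parity. The main test carries no block, and the blocked value is printed where it changes the call of a named gene. Other list genes whose calls it changes enter the blocked counts alone, and the marker counts are without the block.

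Members, gene lists and tests were chosen with earlier results of these data known. Named were all members, and per list the 3 called genes with the smallest adjusted p and the 2 most abundant not called. Of the 22 tested neighbours within 100 kb, those that passed with or without the block were named, a choice by outcome. For each called member the 2 closest profiles were named. The 2 closest were taken among genes with a symbol. Other genes named, and the 2 ratios, were chosen after their values were seen.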

Additional observations from a re-analysis of the deposited data

How the results depend on the processing

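CASP1 and CASP6 kept their direction under all 20 alternatives, CASP1 with its call throughout (log2 fold change 0.25 to 0.32) and CASP6 in 19 of them (-0.44 to -0.31). CASP8 kept its direction in all 20 (0.15 to 0.27) and lost its call in 11. The number of caspases higher was accordingly 1 at an adjusted p of 0.01, 1 on log2(RPKM + 1), 1 on log2(RPKM + 0.1), 1 in replicates 2 and 4 alone, and 1 to 2 on leaving out each library; that lower was 0 in replicates 2 and 4 alone and 1 in replicates 1 and 3 alone. Uncalled signs changed for CASP4 (-0.06 to 0.0291 on leaving out each library, 0.0199 without MOCK replicate 2, 0.0291 without RRM2_OE replicate 1, 0.0289 in replicates 2 and 4 alone), CASP10 (-0.0184 to 0.0413, with -0.0138 without MOCK replicate 1, -0.0184 without RRM2_OE replicate 2) and CASP2 (-0.1327 to 0.0046, with 0.0046 without RRM2_OE replicate 4). Pathway genes higher numbered 8 at 0.01, 23 with the replicate block and 24 with the odd/even term, and 10 to 14 on leaving out each library. Pathway genes lower numbered 1 at 0.01, 8 with the replicate block, 8 with the odd/even term, 6 in replicates 1 and 3 alone, 5 in replicates 2 and 4 alone and 2 on leaving out any library. Over all genes 1133 were higher and 829 lower in the main analysis, 530 and 281 at 0.01, 2303 and 2143 with the replicate block, 2427 and 2277 with the odd/even term, 1047 and 465 on log2(RPKM + 1) and 1022 and 466 on log2(RPKM + 0.1). In replicates 1 and 3 alone 1330 were lower, and leaving out each library left 808 to 937 higher and 542 to 607 lower. The replicate block changed no call of a caspase gene. The causes were not tested. Depth limits CASP5, and the odd/even structure means that 4 libraries a group may overstate the independent samples.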
